A study of Mus musculus with 412 samples.

Results

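The 9 voltage-gated sodium channel subunit genes *Scn1a*, *Scn3a*, *Scn8a*, *Scn9a*, *Scn10a*, *Scn11a*, *Scn2b*, *Scn3b* and *Scn4b* were described in single sensory neurons that innervate the mouse colon. They were found by matching the Ensembl gene identifiers of the expression table to gene symbols (GRCm38), and are 9 of the 45513 genes in that table, 34769 of them detected in some neuron. The neurons came from C57BL/6J mice whose colon wall had been injected with the retrograde tracer Fast Blue, and were picked by hand from primary cultures kept apart for dorsal root ganglia (DRG) of the thoracolumbar (TL) and of the lumbosacral (LS) spine. Each neuron was sequenced as its own full-length (Smart-seq2) library on 1 of 6 plates. The labels list 203 TL and 196 LS neurons, of which 167 and 158 are in the table. The 13 bath controls collected beside the neurons were not analysed here. No label ties a neuron to a mouse, so TL and LS are 1 sample each: no test was run and no p-value is given, SDs are the spread among neurons, exact (Clopper-Pearson) 95% intervals on shares cover counting error only, and an effect of segment cannot be told apart from one of culture or animal. Plates 2 to 6 held neurons of both segments, so each ratio was also taken within each of these 5 plates.

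A voltage-gated sodium channel is a single large alpha subunit, which forms the pore and carries the upstroke of the action potential, joined by small beta subunits that set its gating and its place in the membrane. Alpha subunits are sorted by whether tetrodotoxin (TTX) blocks them: Nav1.1 (*Scn1a*), Nav1.3 (*Scn3a*), Nav1.6 (*Scn8a*) and Nav1.7 (*Scn9a*) are sensitive, whereas Nav1.8 (*Scn10a*) and Nav1.9 (*Scn11a*), both largely confined to sensory neurons, are resistant. Nociceptors combine both kinds, and fast myelinated afferents rely on the sensitive kind.

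The difference in TTX block rests on 1 residue of the pore loop of the first channel domain, which is why these 30 coding bases are shown for 5 of the alpha subunits. They are read 5′ to 3′ on the coding strand from the GENCODE vM21 transcripts (GRCm38), with the codon of that residue in capitals.
Scn3a: atgactcaagacTACtgggagaacctttac
Scn8a: atgactcaggacTACtgggagaacttatac
Scn9a: atgactcaggacTACtgggagaacctttat
Scn10a: atgacgcaggacTCCtgggaacggctgtac
Scn11a: atgactcaagacTCCtgggagaagctttat
The codon is one for tyrosine, an aromatic residue, in the sensitive *Scn3a*, *Scn8a* and *Scn9a*, and a serine codon in *Scn10a* and *Scn11a*. *Scn10a* and *Scn11a* shared 23 of the 30 bases, and *Scn3a* and *Scn9a* shared 28. The resistant *Scn11a* shared 27 bases with each of the sensitive *Scn3a* and *Scn9a*, so likeness over the whole stretch did not follow TTX block. Each stretch lies within 1 coding exon, at chr2:65521798-65521827 (minus strand, exon 9) for *Scn3a*, chr15:100971626-100971655 (plus, exon 9) for *Scn8a*, chr2:66548986-66549015 (minus, exon 10) for *Scn9a*, chr9:119666372-119666401 (minus, exon 8) for *Scn10a* and chr9:119805665-119805694 (minus, exon 9) for *Scn11a*. All of these genes but *Scn8a*, which is on chromosome 15, therefore sit in clusters on chromosomes 2 and 9. The beta subunit genes are also on chromosome 9, *Scn2b* at chr9:45117782-45130070, *Scn3b* at chr9:40269217-40291618 and *Scn4b* at chr9:45138395-45154152, all on the plus strand. The only exon of a member that overlaps another gene is in *Scn9a*, where 180 bases are shared with *Gm13629* on the opposite strand.

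A level below is the deposited value taken off its log2 scale and rescaled to sum to 1000000 in each neuron, a per-length scale on which genes can be compared. Whole reads recovered from the values numbered 416007 to 12058968 per neuron (median 2867071, or 2709639 among TL and 3202776 among LS neurons), and a median of 13658 genes was detected. The 10 sensory neuron markers summed to at least 2489 in every neuron, with a median of 16290. Of the 10 satellite glia and Schwann cell markers 7 had a median of 10 or more in TL and 3 in LS, and the median of their sum was 2565 in TL (1.06 to 101300) and 1442 in LS (0.323 to 61850). No endothelial or macrophage marker had a median of 10 or more, and the 5 endothelial markers summed to a median of 0.189 with 2 TL neurons above 100 and the 6 macrophage markers to a median of 2.98. The part of these other cell types in the results was not tested, beyond runs without the tenth of neurons highest in glial markers and without the 2 neurons with endothelial transcripts. Neurons were also classed by *Gfra3*, the receptor for artemin carried by peptidergic nociceptors, and *Piezo2*, the mechanically gated channel of touch and stretch afferents, each counted as present at a level of 10 or more. Of the 325 neurons, 158 were Gfra3-only (82 TL, 76 LS), 120 Piezo2-only (55 TL, 65 LS), 25 had both (18 TL, 7 LS) and 22 neither (12 TL, 10 LS). The highest *Gfra3* level below the limit was 9.63 and the lowest above it 10.98; for *Piezo2* these were 9.99 and 10.9. The summed glial markers had medians of 2486 in TL and 104 in LS Gfra3-only neurons and of 2388 and 2091 in Piezo2-only neurons.

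Counted at a level of 10, colonic neurons carried 3 alpha subunits broadly and the other 3 sparsely. *Scn10a*, whose channel carries most of the action potential upstroke in nociceptors, ran from 0 to 1216 around a median of 140, with a mean of 187 ± 201 (SD, n = 325), and reached 10 in 88.6% of neurons (95% interval 84.7 to 91.9). *Scn9a*, the amplifier of slow depolarisations whose loss in people abolishes pain, ran from 0 to 176 around a median of 67.3, with a mean of 63.3 ± 32.2, and reached 10 in 91.1% (87.4 to 93.9). *Scn11a*, whose persistent current helps set the resting potential of nociceptors, ran from 0 to 578 around a median of 47.0. Its mean was 62.2 ± 77.9, and it reached 10 in 83.1% (78.5 to 87.0). *Scn9a* was the most even of the 3, with an SD below its mean, whereas *Scn10a* and *Scn11a* had SDs above their means.

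The remaining sensitive subunits were below 10 in most neurons. *Scn8a*, the channel of the nodes of Ranvier, had a median of 2.44, with a mean of 6.49 ± 10.9 and a highest value of 88.4, and 17.5% of neurons reached 10 (13.6 to 22.1). *Scn1a*, a channel of myelinated mechanosensory fibres, had a median of 0, with a mean of 4.14 ± 9.91 and a highest value of 67.9, and 10.5% reached 10 (7.35 to 14.3). *Scn3a*, mainly an embryonic channel that returns after nerve injury, had a median of 0.527, with a mean of 1.33 ± 1.93, and 1 neuron of 325 reached 10, at 14.3. *Scn1a* was listed at 0 in 170 neurons, *Scn3a* in 104 and *Scn8a* in 52. *Scn8a* was thus low but broadly detected, and *Scn1a* was undetected in more than 50% of neurons and mostly below 10 in the others.

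Of the beta subunits, 2 were broad and 1 was restricted. *Scn2b*, which is joined to the alpha subunit by a disulphide bond, ran from 0 to 652 around a median of 72.6, with a mean of 75.7 ± 63.7, and 84.6% of neurons reached 10 (80.2 to 88.4). *Scn3b*, which binds without such a bond, ran from 0 to 198 around a median of 71.9, with a mean of 71.7 ± 44.4, and 90.5% reached 10 (86.7 to 93.4). *Scn4b*, whose cytoplasmic tail can block the open pore and give a resurgent current, ran from 0 to 215 around a median of 0.208, with a mean of 11.8 ± 33.6, and 18.2% reached 10 (14.1 to 22.8). By mean level the order of the 9 genes was *Scn10a*, *Scn2b*, *Scn3b*, *Scn9a*, *Scn11a*, *Scn4b*, *Scn8a*, *Scn1a* and *Scn3a*, and every pair of neighbours in that order differed by less than the SD of the higher one.

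Within a neuron *Scn10a* was usually the leading alpha subunit. Of the 319 neurons whose 6 alpha levels summed to at least 10, it was highest in 265, *Scn9a* in 32, *Scn11a* in 14, *Scn1a* in 6 and *Scn8a* in 2. *Scn10a* and *Scn11a* together made up a median of 72.5% of the summed alpha level, 77.1% in TL and 69.1% in LS, and in 16 neurons (12 TL, 4 LS) they made up less than 10%. The trio of *Scn9a*, *Scn10a* and *Scn11a*, each at 10 or more, was present in 257 of 325 neurons (79.1%, 74.2 to 83.4), and in 214 of these no other alpha subunit reached 10. A further 24 neurons carried *Scn8a* beside the trio, 13 carried both *Scn1a* and *Scn8a* beside it, and 12 carried *Scn1a*, *Scn8a* and *Scn9a* with neither resistant subunit. No alpha subunit reached 10 in 11 neurons (6 TL, 5 LS), in which a median of 8612 genes was detected against 13773 in the other neurons, and the glial markers summed to a median of 4339 against 1959.

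**Figure D1:**
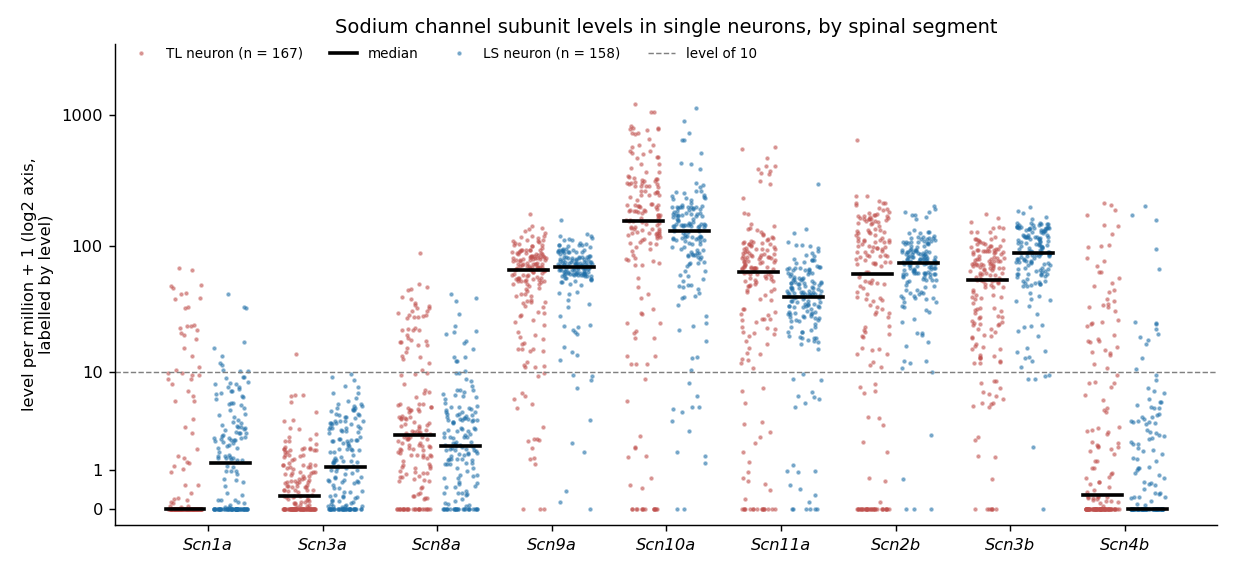
Level of each subunit (vertical, level + 1 on a log2 axis) in each of 167 TL and 158 LS neurons, with the median as a black bar and a level of 10 as a dashed line. *Scn9a*, *Scn10a*, *Scn11a*, *Scn2b* and *Scn3b* lie above the line in over 83% of neurons, whereas the medians of *Scn1a*, *Scn3a*, *Scn8a* and *Scn4b* lie below it in both segments.

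The segments were compared to ask whether neurons of the splanchnic and pelvic pathways differ in their channels. A gene was counted as past the fold when its ratio of mean levels, with 1 added to each, was at least 2-fold and had the same direction in each of the 5 plates, provided that the mean level was 10 or more in 1 of the groups. Between LS and TL, 2.18% of the 7752 genes that met the level limit were past the fold on the higher side and 2.04% on the lower side. Of the 9 subunits 6 met the level limit, with a median log2 ratio of -0.28 against 0.0429 over all genes. The 1 past the fold was *Scn4b*, which was lower in LS. *Scn4b* met the limit only in TL, so it could be called only as lower in LS. The direction of a call is bound in this way wherever a gene met the limit in 1 group only.

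*Scn4b* ran from 0 to 215 with a median of 0.286 in TL and from 0 to 201 with a median of 0 in LS, and its means were 16.6 ± 38.8 and 6.71 ± 26.2 (log2 ratio -1.19). It was lower in LS in all 5 plates, by log2 ratios of -2.73 to -0.75, and 26.3% of TL against 9.49% of LS neurons reached 10. The ranges of the segments overlapped fully, and the difference lay in how many neurons carried the gene. *Scn4b* was no longer past the fold without plate 3 (log2 ratio -0.89), without the 56 neurons low in genes or high in mitochondrial reads (-1.01, with plate 6 in the other direction), with medians over neurons (-0.36), with mean log2 levels (-0.73) or with 10 in place of 1 added to each mean (-0.67).

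*Scn3b* and *Scn11a* moved the same way in every plate without reaching 2-fold. *Scn3b* had a median of 55.0 (0 to 175) and a mean of 55.5 ± 39.6 in TL, and a median of 88.4 (0 to 198) and a mean of 88.7 ± 42.9 in LS (log2 ratio 0.67, plates 0.51 to 0.94). *Scn11a* had a median of 63.0 (0 to 578) and a mean of 80.3 ± 101 in TL, and a median of 40.4 (0 to 297) and a mean of 43.0 ± 33.3 in LS (-0.89, plates -1.33 to -0.41). *Scn8a* (8.52 ± 13.3 in TL, 4.34 ± 7.09 in LS) was lower in LS and *Scn3a* (0.844 ± 1.60 and 1.84 ± 2.11) higher in LS in 5 of 5 plates, but both were below the level limit.

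The other 4 subunits had no common direction over the plates. *Scn10a* had medians of 156 in TL and 130 in LS, with means of 221 ± 233 and 151 ± 152 (-0.54, lower in LS in 4 of 5 plates). *Scn9a* had means of 60.2 ± 35.8 and 66.5 ± 27.7 (0.14) and *Scn1a* of 5.10 ± 12.6 and 3.12 ± 5.82 (-0.57). The *Scn1a* ratio turned to 1.16 with medians (0 in TL, 1.24 in LS) and to 0.30 with mean log2 levels. *Scn1a* was listed at 0 in 111 TL and 59 LS neurons. *Scn2b* had nearly equal means, 76.2 ± 80.6 in TL and 75.2 ± 38.8 in LS (-0.02), yet it was listed at 0 in 33 TL and 3 LS neurons, and 73.1% (65.6 to 79.6) of TL against 96.8% (92.8 to 99.0) of LS neurons reached 10. *Scn2b* was thus more uneven in TL, and when log2 levels were averaged instead, its ratio became 1.17 and that of *Scn10a* turned to 0.10.

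**Figure D2:**
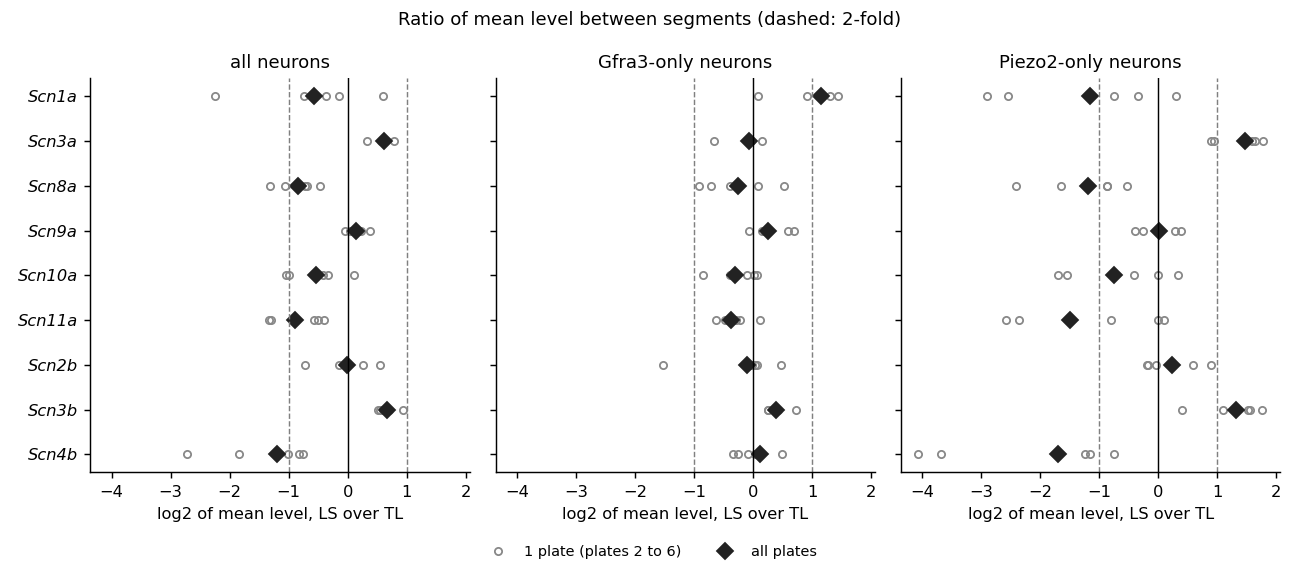
Log2 ratio of mean level, LS over TL, for each subunit in all neurons, in Gfra3-only neurons and in Piezo2-only neurons, with 1 open circle per plate (plates 2 to 6), a diamond for all plates and dashed lines at 2-fold. In all neurons the *Scn4b* diamond lies at -1.19. In Piezo2-only neurons *Scn3a* (1.47) and *Scn3b* (1.31) lie beyond the dashed line on the right. *Scn1a* (-1.16), *Scn8a* (-1.19), *Scn11a* (-1.50) and *Scn4b* (-1.69) lie beyond the one on the left.

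*Gfra3* and *Piezo2* neurons were compared next, as candidate nociceptors and mechanoreceptors, within each segment. In TL, 4.63% of 7867 genes were past the fold on the higher side in Gfra3-only neurons and 5.38% on the lower side. Of the 9 subunits 8 met the level limit (median log2 ratio -0.96 against -0.04 over all genes). Of these, 4 were lower in Gfra3-only neurons (*Scn1a*, *Scn8a*, *Scn10a* and *Scn4b*) and 1 was higher (*Scn3b*). *Scn1a*, *Scn8a* and *Scn4b* met the limit only through Piezo2-only neurons, so they could be called only as lower, and they enter that median.

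The largest of these ratios were in *Scn4b* and *Scn1a*. *Scn4b* ran from 0 to 8.13 with a median of 0 in TL Gfra3-only neurons and from 0 to 215 with a median of 18.0 in TL Piezo2-only neurons, with means of 0.501 ± 1.17 and 42.1 ± 57.8 (log2 ratio -4.84, plates -5.34 to -3.49). *Scn1a* ran from 0 to 1.43 in the former, with 75 of 82 neurons at 0, and from 0 to 67.9 with a median of 7.99 in the latter, with means of 0.0522 ± 0.233 and 13.9 ± 17.9 (-3.82). Because the means in Gfra3-only neurons are below 1, these ratios depend on the 1 added to each mean, and with 0.1 added they were -6.14 for *Scn4b* and -6.52 for *Scn1a*. Neither gene reached 10 in any of the 82 TL Gfra3-only neurons, where a count of 0, taken as at most 3 counts, allows a share of up to 3.66% and the exact 95% interval runs to 4.399%, whereas *Scn4b* reached it in 34 and *Scn1a* in 22 of 55 TL Piezo2-only neurons.

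*Scn8a* and *Scn10a* were also lower in TL Gfra3-only neurons. *Scn8a* had a median of 1.59 (0 to 10.5) against 16.9 (0 to 88.4) and means of 1.95 ± 2.07 and 18.5 ± 17.8 (-2.72). *Scn10a* had a median of 137 (0 to 736) against 259 (0 to 1216) and means of 149 ± 121 and 320 ± 322 (-1.10). The range of *Scn10a* in Piezo2-only neurons spanned the whole of that in Gfra3-only neurons. *Scn3b* was the only subunit past the fold on the higher side in Gfra3-only neurons, with a median of 72.7 (0 to 175) against 25.4 (0 to 128) and means of 71.7 ± 36.6 and 35.1 ± 31.0 (1.01).

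The results for *Scn10a* and *Scn3b* lay close to 2-fold and did not hold throughout. Without the 12 TL Piezo2-only neurons that had *Mrgprd* at 10 or more, a step added after the values were seen, the log2 ratio of *Scn10a* was -0.38 and that of *Scn3b* 0.84, so neither was past the fold, and *Scn11a* was higher in Gfra3-only neurons (0.61). Without plate 5 the ratios of *Scn10a* and *Scn3b* were -0.79 and 0.94, and neither was past the fold. Both also failed the rule on the values as deposited (-0.77 and 1.501) and with classes cut at 5 (-1.05 and 1.08), where a ratio past 2-fold did not hold its direction in every plate. *Scn10a* alone fell short with medians (-0.92), with mean log2 levels (-0.10) and without the tenth of neurons highest in glial markers (-0.99). *Scn3b* alone fell short without plate 3 (0.98), without plate 6 (0.82), without the 2 neurons with endothelial transcripts (0.98), without the 56 neurons low in genes or high in mitochondrial reads (0.96), with means of plate means (0.87), with classes cut at 20 (0.87) and with 10 added to each mean (0.86). *Scn9a* (55.3 ± 28.9 against 73.2 ± 39.6, -0.40), *Scn11a* (65.2 ± 37.7 against 115 ± 158, -0.81), *Scn2b* (72.5 ± 83.2 against 72.9 ± 84.1, -0.01) and *Scn3a* (1.06 ± 1.51 against 0.471 ± 0.590, 0.49) were not past the fold, and the *Scn11a* ratio turned to 0.20 with medians and to 0.74 with mean log2 levels. Despite its nearly equal means, *Scn2b* had a median of 60.0 in TL Gfra3-only and 28.0 in TL Piezo2-only neurons, and 81.7% against 52.7% reached 10.

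In LS, 3.74% of 7908 genes were past the fold on the higher side in Gfra3-only neurons and 5.05% on the lower side. Of the 6 subunits that met the level limit (median log2 ratio -0.26 against -0.02 over all genes) only *Scn4b* was past the fold. *Scn4b* met the limit only through Piezo2-only neurons, so it could be called only as lower in Gfra3-only neurons. Its median was 0 (0 to 13.1) in LS Gfra3-only and 2.25 (0 to 201) in LS Piezo2-only neurons, with means of 0.629 ± 1.86 and 12.3 ± 37.5 (-3.03). Without plate 6 the mean of *Scn4b* no longer met the level limit in either class and its log2 ratio was -2.19. *Scn1a* (1.33 ± 2.02 against 5.64 ± 8.03, -1.51), *Scn8a* (1.46 ± 1.89 against 7.57 ± 8.86, -1.80) and *Scn3a* (0.967 ± 1.30 against 3.07 ± 2.41, -1.05) were lower in Gfra3-only neurons in all 5 plates, yet their means were below 10 in both classes.

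The broadly carried subunits were not past 2-fold between the LS classes. *Scn10a* had means of 120 ± 77.4 and 190 ± 196 (-0.66), *Scn11a* of 50.1 ± 25.0 and 40.1 ± 40.7 (0.31), *Scn9a* of 65.8 ± 24.4 and 73.5 ± 25.6 (-0.16), *Scn2b* of 67.2 ± 35.4 and 86.3 ± 41.5 (-0.36) and *Scn3b* of 94.0 ± 43.0 and 88.9 ± 38.1 (0.08), with Gfra3-only neurons given first. *Scn10a* and *Scn2b* were lower in Gfra3-only neurons in all 5 plates, and *Scn10a* was past 1.5-fold. Neurons with both *Gfra3* and *Piezo2* carried *Scn10a* at 334 ± 200 (n = 25), and neurons with neither were low in *Scn10a* (57.8 ± 61.7), *Scn9a* (18.1 ± 19.6) and *Scn11a* (9.02 ± 14.4, n = 22). The neurons with neither also had fewer genes detected, with medians of 9199 in TL and 9569 in LS.

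**Figure D3:**
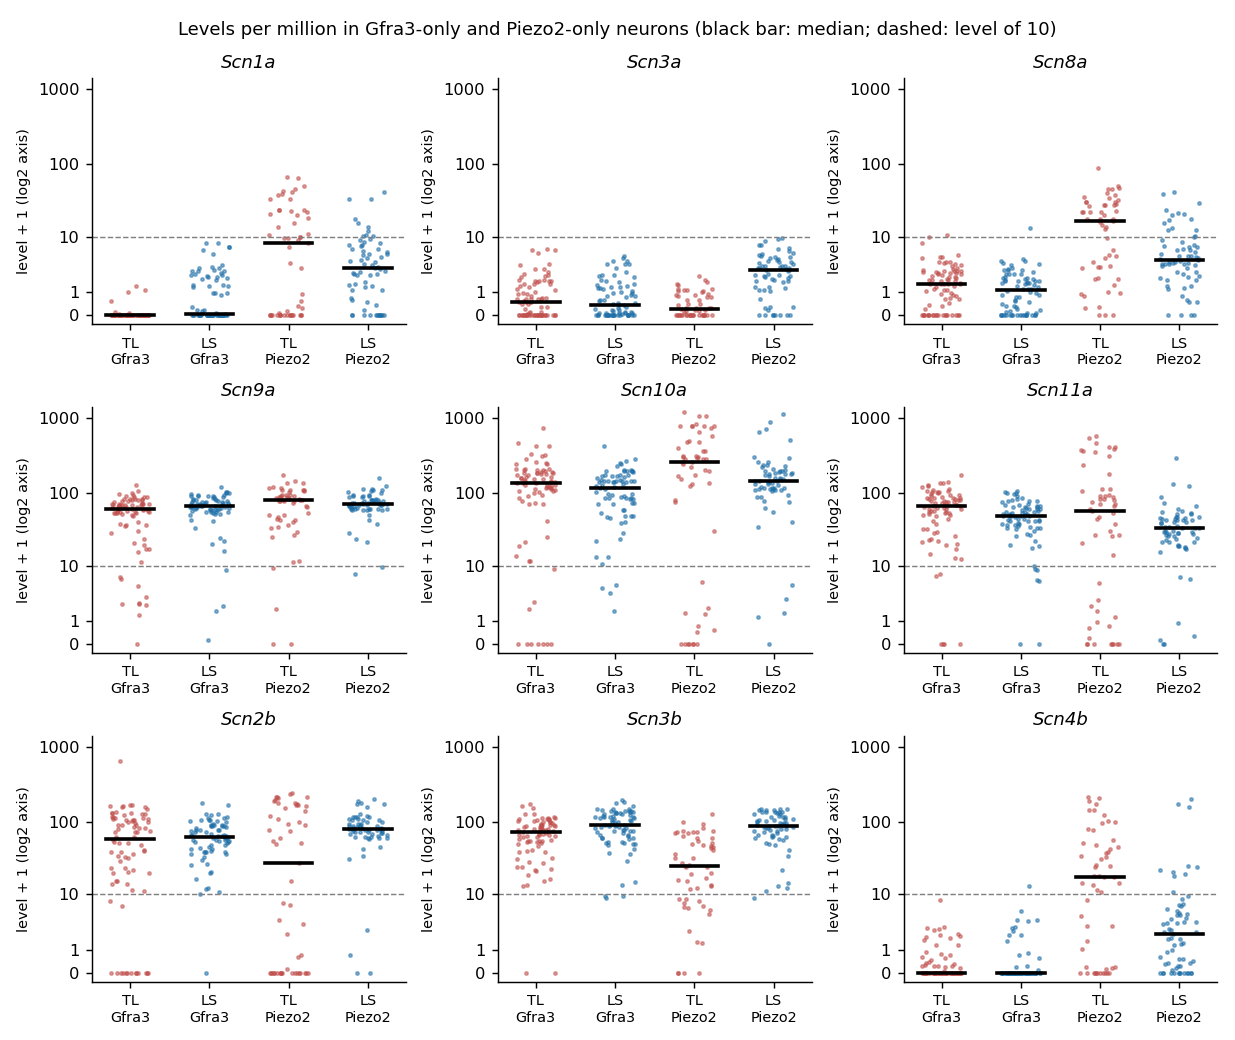
Level of each subunit (level + 1, log2 axis) in 82 TL and 76 LS Gfra3-only neurons and in 55 TL and 65 LS Piezo2-only neurons, with the median as a black bar and a level of 10 as a dashed line. *Scn1a*, *Scn8a* and *Scn4b* rise above the line mainly in Piezo2-only neurons, and *Scn10a* reaches both 0 and its highest value, 1216, in TL Piezo2-only neurons.

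Among Gfra3-only neurons no subunit was past the fold between segments (1.69% of 7676 genes were higher in LS and 1.38% lower), with a median log2 ratio of -0.11 over the 5 subunits that met the level limit against 0.05 over all genes. The largest ratio among those 5 was that of *Scn3b* (0.39), with means of 71.7 ± 36.6 in TL and 94.0 ± 43.0 in LS. *Scn1a*, below the level limit, was listed at 0 in 75 of 82 TL but in 37 of 76 LS Gfra3-only neurons, with a highest value of 8.18 in LS.

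Among Piezo2-only neurons 4.47% of 7883 genes were higher in LS and 2.79% lower. Of the 9 subunits 8 met the level limit (median -0.96 against 0.03 over all genes), *Scn3b* was higher in LS and *Scn8a* and *Scn4b* were lower. *Scn8a* and *Scn1a* met the limit only in TL, so they could be called only as lower in LS. *Scn3b* had a median of 25.4 (0 to 128) and a mean of 35.1 ± 31.0 in TL, against 88.3 (8.79 to 152) and 88.9 ± 38.1 in LS (1.31). *Scn8a* had means of 18.5 ± 17.8 and 7.57 ± 8.86 (-1.19), and it was no longer past the fold without plate 4 (-0.95), with mean log2 levels (-0.93) or with 10 added to each mean (-0.70). *Scn3b* failed the rule on the values as deposited (1.36). *Scn4b* had means of 42.1 ± 57.8 and 12.3 ± 37.5 (-1.69), and 61.8% (47.7 to 74.6) of TL against 15.4% (7.63 to 26.5) of LS neurons reached 10. The *Scn4b* ratio was -2.32 without plate 6, and it was no longer past the fold without the 56 neurons low in genes or high in mitochondrial reads (-1.30, with plate 6 in the other direction).

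*Scn11a* and *Scn3a* also differed between Piezo2-only neurons of the segments, short of the rule. *Scn11a* had means of 115 ± 158 in TL and 40.1 ± 40.7 in LS (-1.50), lower in LS in 4 of 5 plates. It was past the fold without plate 4 (-1.83), and *Scn1a* (13.9 ± 17.9 and 5.64 ± 8.03, -1.16) was past it without plate 2 (-1.31). *Scn3a* had a median of 0.196 (0 to 2.28) in TL and 2.93 (0 to 9.63) in LS, with means of 0.471 ± 0.590 and 3.07 ± 2.41 (1.47), higher in LS in all 5 plates but never at 10. The medians of *Scn9a* were 80.3 and 71.7 (0.01 for the ratio of means). *Scn10a* had means of 320 ± 322 and 190 ± 196 (-0.75), a ratio that turned to 0.49 with mean log2 levels, and *Scn2b* of 72.9 ± 84.1 and 86.3 ± 41.5 (0.24). The *Scn2b* ratio was 1.51 with medians and 2.21 with mean log2 levels, and 52.7% of TL against 93.85% of LS neurons reached 10.

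Piezo2-only neurons were then divided by *Mrgprd*, a receptor of non-peptidergic nociceptors. This division was chosen after the values were seen, so it describes these neurons and supports nothing. TL held 12 neurons with *Mrgprd* at 10 or more and 43 without, and LS held 1 and 64. The 12 TL neurons with *Mrgprd* came from plates 3, 5 and 6.

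The 12 TL *Mrgprd* neurons had higher mean levels of the resistant channels than the other sets of TL neurons described here. *Scn10a* ran from 245 to 1216 around a median of 793, with a mean of 774 ± 290, and *Scn11a* from 112 to 578 around a median of 386, with a mean of 377 ± 134. *Scn1a* (0.784 ± 2.53), *Scn8a* (4.28 ± 8.62), *Scn4b* (2.23 ± 7.04) and *Scn2b* (median 0, mean 17.3 ± 49.5) were low, and *Scn10a* and *Scn11a* made up a median of 92.9% of the alpha level. A single neuron of the 12 carried *Scn8a* at 31.1 and *Scn4b* at 24.5, and that neuron also had the lowest *Scn11a* level of the 12. The only LS neuron with *Mrgprd* had *Scn10a* at 1136 and *Scn11a* at 297.

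The 43 TL neurons without *Mrgprd* were mixed. *Scn10a* ran from 0 to 736 around a median of 168, with a mean of 193 ± 189, and was at 10 or more in 29 of them. *Scn11a* (42.4 ± 48.0) was at 10 or more in 26, *Scn2b* (88.5 ± 85.6) in 27 and *Scn4b* (53.2 ± 60.9) in 33. *Scn10a* was the highest alpha subunit in 29 of these neurons, *Scn9a* in 7, *Scn1a* in 5 and *Scn8a* in 1, and in 12 of them the resistant subunits made up less than 10% of the alpha level. *Scn1a* (17.5 ± 18.7) and *Scn8a* (22.5 ± 17.7) were at 10 or more in 22 and 31 of the 43.

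The 64 LS neurons without *Mrgprd* were more alike in which of the broad subunits they carried. *Scn10a* (175 ± 157) was at 10 or more in 59, *Scn11a* (36.1 ± 24.8) in 57, *Scn2b* (87.6 ± 40.4) in 61 and *Scn3b* (90.1 ± 37.0) in all 64, whereas *Scn8a* (7.69 ± 8.88) and *Scn4b* (12.5 ± 37.8) reached 10 in 14 and 10. With *Mrgprd* neurons left out, *Scn8a* (log2 ratio, LS over TL, -1.43) and *Scn4b* (-2.01) were again past the fold on the lower side and *Scn3b* (39.6 ± 33.2 in TL, 1.17) on the higher side. The *Scn11a* ratio was -0.23 without the *Mrgprd* neurons against -1.50 over all Piezo2-only neurons, and that of *Scn10a* -0.14 against -0.75.

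**Figure D4:**
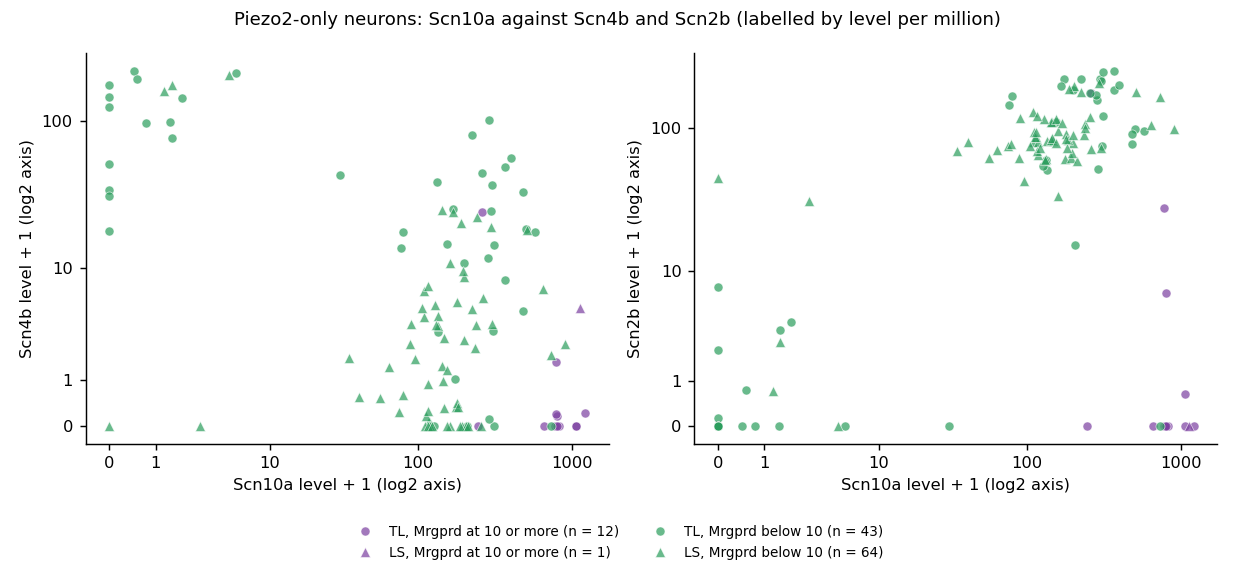
*Scn10a* level (horizontal) against *Scn4b* and *Scn2b* level (vertical) in each Piezo2-only neuron, on log2 axes of level + 1, with colour for *Mrgprd* and shape for the segment. The 12 TL neurons with *Mrgprd* lie at *Scn10a* levels of 245 to 1216 with *Scn4b* near 0 except in 1 neuron, and the 43 TL neurons without it spread over *Scn10a* levels of 0 to 736, with *Scn4b* up to 215.

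**Figure D5:**
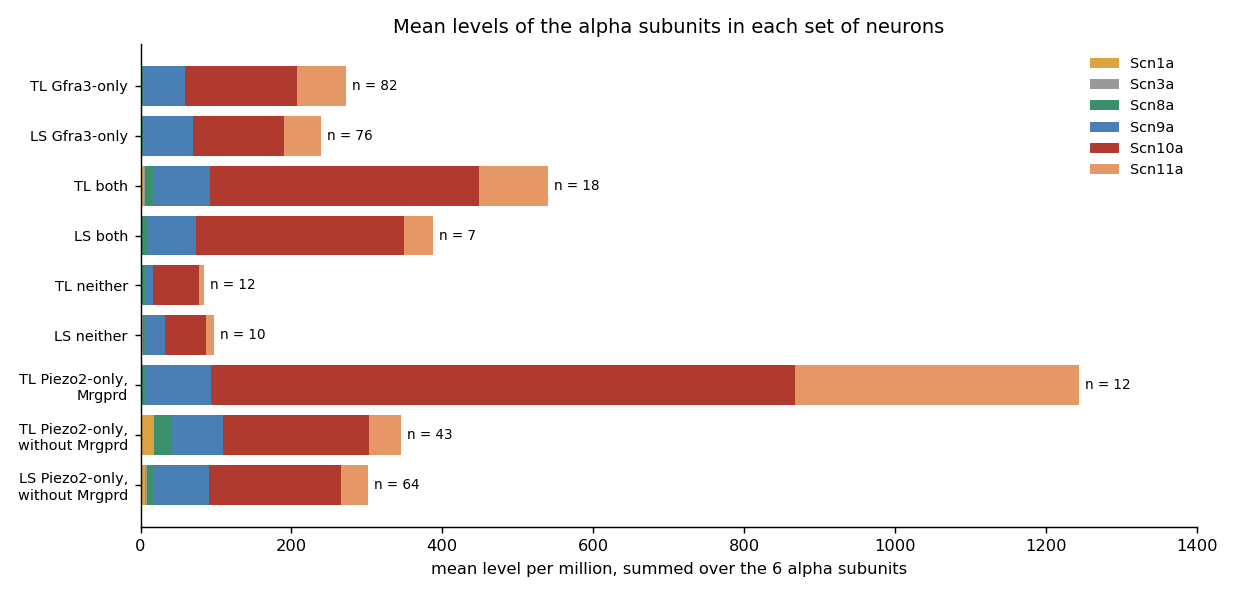
Mean levels of the 6 alpha subunits stacked for each set of neurons, with the number of neurons beside each bar and no error bars, since SDs are given in the text. The summed mean is 1244 in TL Piezo2-only neurons with *Mrgprd* and 345 in those without it, where *Scn1a* and *Scn8a* take a visible share of the bar.

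Presence of *Piezo2* and of *Nefh* beside the sparse subunits was counted over all neurons, of which 44.6% had *Piezo2* and 92.6% had *Nefh*, the heavy neurofilament gene, at 10 or more. *Scn1a* was at 10 or more in 34 neurons (23 TL, 11 LS), of which 33 also had *Piezo2*, and the median *Nefh* level was 400 in them and 48.7 in the other neurons. *Scn8a* was at 10 or more in 57 neurons (41 TL, 16 LS), 53 with *Piezo2*, and *Scn4b* in 59 (44 TL, 15 LS), 49 with *Piezo2*. *Scn1a* came without *Scn10a* in 15 neurons (4.62%, 2.61 to 7.498), and *Scn4b* came with *Scn8a* in 43 (13.2%, 9.74 to 17.4).

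Rank correlations (Spearman) between members over the 325 neurons are given as a description. The neurons share library preparation and differ in depth, and the members' own correlations with the number of genes detected ran from 0.14 for *Scn4b* to 0.48 for *Scn9a*. *Scn10a* and *Scn11a* had the highest correlation of the 36 pairs, 0.71, with 0.79 in TL and 0.50 in LS. *Scn8a* and *Scn4b* followed at 0.62, *Scn9a* with *Scn10a* at 0.58 and with *Scn11a* at 0.57, *Scn3a* with *Scn3b* at 0.52, and *Scn1a* with *Scn8a* and with *Scn4b* at 0.48 each. Within the 55 TL and the 65 LS Piezo2-only neurons the correlation was 0.92 and 0.64 for *Scn10a* and *Scn11a*, and 0.82 and 0.56 for *Scn1a* and *Scn4b*. It was 0.73 and 0.19 for *Scn2b* and *Scn3b*, and -0.70 and -0.09 for *Scn11a* and *Scn4b*, so these pairs were correlated in TL but hardly in LS. The TL set held 12 *Mrgprd* neurons and the LS set 1, and correlations were not taken without them. Their part in this difference was not tested. In Gfra3-only neurons, where both genes are near 0, *Scn1a* and *Scn4b* had a correlation of 0.01 in TL and -0.23 in LS.

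The genes most like each member were taken as the 3 with the highest Spearman correlation over the 325 neurons, among 10275 genes at 10 or more in at least 10% of neurons. These were *Fam189b* (0.74), *Osbpl3* (0.70) and *Nedd4l* (0.69) for *Scn10a*, and *Pirt* (0.76), a regulator of TRP channels, *Cds2* (0.75) and *Sept6* (0.73) for *Scn11a*. For *Scn9a* they were the microtubule-associated *Map1b* (0.67) and *Map1a* (0.65) and the dynein heavy chain *Dync1h1* (0.65). *Scn1a* was closest to the synaptic vesicle gene *Sv2b* (0.70), *Cntn1* (0.67) and *Rprm* (0.66), and *Scn8a* to *Gpr158* (0.64), *Paqr9* (0.62) and *Nefh* (0.62). *Scn3a* was closest to *Pld3* (0.62), synaptophysin (*Syp*, 0.62) and *Sdha* (0.59). For the beta subunits they were *Smpd3* (0.58) and *Prkcb* (0.55) with *Scn2b*, *Sgsm1* (0.76), *Wdr6* (0.74) and *Gprasp2* (0.71) with *Scn3b*, and *Lgi3* (0.69), *S100b* (0.68) and *Cpne6* (0.65) with *Scn4b*. *S100b* is in the glial marker list, and the *Scn4b* level had a correlation of 0.25 with the summed glial markers.

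Among other genes of the sodium channel family, *Scn7a*, the sodium-sensing channel relative, was broad, with a mean of 43.1 ± 44.4 and 84.3% of neurons at 10 or more. It was past the fold and lower in Gfra3-only neurons in each segment, with means of 17.2 ± 14.8 and 87.1 ± 66.9 in TL (-2.27) and 26.7 ± 15.7 and 68.6 ± 38.8 in LS (-1.33). The leak channel gene *Nalcn* had a mean of 10.5 ± 7.16, and the brain and skeletal muscle channels *Scn2a* (2.16 ± 2.53) and *Scn4a* (0.955 ± 2.13) were low.

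Of 16 genes for proteins that bind or anchor sodium channels, 10 met the level limit between LS and TL and 1 was past the fold, higher in LS (2.18% of all genes were). Between the classes 11 met the limit in each segment, and 2 were past the fold in TL, both lower in Gfra3-only neurons (5.38% of all genes), and 3 in LS, 2 lower (5.05%) and 1 higher (3.74%). Between the segments 0 of 9 were past the fold in Gfra3-only neurons, and 2 of 11 in Piezo2-only neurons, 1 higher in LS (4.47%) and 1 lower (2.79%). *Fgf12*, an intracellular fibroblast growth factor homologue that binds the channel tail, had means of 24.6 in Gfra3-only and 541 in Piezo2-only TL neurons (-4.40) and of 18.9 and 236 in LS (-3.58). *Cntn1*, which takes channels to the surface, had means of 2.404 and 58.9 in TL (-4.14) and 5.70 and 46.3 in LS (-2.82). *Fgf13* went the other way in LS, with 862 in Gfra3-only and 409 in Piezo2-only neurons (1.07). *Nrcam*, an adhesion molecule of the nodes, had means of 25.3 in TL and 58.7 in LS (1.19) and, in Piezo2-only neurons, of 22.1 and 82.9 (1.86), where *Fgf12* was lower in LS (-1.19).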

How the data were processed

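The authors deposited 1 table of log2 values per gene and neuron. Per the submitters' processing notes, reads were demultiplexed with bcl2fastq 2.15.0.4, aligned to GRCm38.p3 with STAR 2.4.1 and counted with featureCounts 1.4.4. The paper states that low-quality neurons were removed before analysis, and that contaminating satellite glia were then removed before clustering. All 325 neurons of the table were kept here, including any that the paper removed at that later step. The values are log2(x + 1), where x is length-normalised but sums to 218900 to 11160000 per neuron, so x was rescaled to 1000000 per neuron. Whole reads were recovered from the steps of x. With annotated gene lengths, 65.3% of values came out whole to within 1e-06 of the read number, and to within 0.01 reads at most. The lengths of 8712 genes were taken from the values, 760 of them unsure. Whether counting used strand is not given in the sources used here.

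The members, gene lists and class limits were chosen with earlier results of these data known. Named genes were all 9 members, 6 other family genes, 16 channel partners, and the 3 genes most correlated with each member. Some of these genes and 1 sequence are not reported here. *Gfra3* and *Piezo2* neurons were defined at a level of 10. The division by *Mrgprd*, and the run without 2 neurons with endothelial transcripts, were added after the values were seen. No 2 neurons had identical values, and no column of the table was left out. Alternatives covered the pseudocount, the average, the plates, the scaling, the filters on genes and neurons, the class limit and the fold. Scripts were tested on simulated data and used Python 3.11.15, numpy 2.4.6, pandas 2.3.3, scipy 1.17.1 and matplotlib 3.10.9. Protein sequences were not used here.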

Additional observations from a re-analysis of the deposited data

Results flagged for a closer look

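*Scn3a* pointed in opposite directions between the classes in the 2 segments. The log2 ratio of mean level, Gfra3-only over Piezo2-only, was 0.487 in TL, above 0 in all 5 plates, and -1.05 in LS, below 0 in all 5 plates. The difference between the segments was not tested, since each segment is 1 sample, and all 4 mean levels were between 0.471 and 3.07.

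*Scn7a* pointed in opposite directions between the segments in the 2 classes. Its log2 ratio, LS over TL, was 0.60 in Gfra3-only neurons (means 17.2 in TL and 26.7 in LS) and -0.34 in Piezo2-only neurons (87.1 and 68.6), in all 5 plates each. This difference was not tested either, and neither ratio reached 2-fold.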

How the results depend on the processing

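No paired analysis was possible because each segment is 1 sample and the labels pair no replicates between groups, and plates served only as strata of neurons. For the 9 subunits, no ratio that was past the fold changed sign under any alternative that was run, but these ratios were picked for 1 direction in every plate. The 5 comparisons are given here in the order LS over TL, class in TL, class in LS, segment in Gfra3-only neurons and segment in Piezo2-only neurons, in which 327, 787, 695, 236 and 572 genes and 1, 5, 1, 0 and 3 subunits were past the fold. Over all 9 subunits, past the fold or not, 7 of 162, 13 of 189, 2 of 189, 11 of 180 and 10 of 189 alternative ratios did not keep the sign of the main one. With a pseudocount of 10 the genes numbered 146, 489, 396, 107 and 312, at 1.5-fold 708, 1364, 1247, 526 and 1091, and both without a level limit and with a limit of 1 they numbered 753, 1490, 1363, 625 and 1129. Within Gfra3-only neurons the genes numbered 381 without plate 6 and 390 without the plate rule. Between LS and TL the subunits past the fold numbered 0 with a pseudocount of 10, with medians, without plate 3 and without the 56 neurons low in genes or high in mitochondrial reads, 2 with mean log2 levels (*Scn2b* and *Scn3b*) and 3 at 1.5-fold (*Scn11a*, *Scn3b* and *Scn4b*). For the classes in TL they numbered 3 without plate 5, on the values as deposited, with classes cut at 5 and without *Mrgprd* neurons (*Scn1a*, *Scn8a* and *Scn4b* each time). For the classes in LS they numbered 0 without plate 6, 2 at 1.5-fold, and 4 without a level limit, with a limit of 1 and on CPM of the recovered reads (*Scn1a*, *Scn3a*, *Scn8a* and *Scn4b*). Within Gfra3-only neurons 1 subunit (*Scn1a*) was past the fold without a level limit or with a limit of 1, and within Piezo2-only neurons 5 were without the plate rule, *Scn1a* and *Scn11a* being added. The causes of these changes were not tested beyond what each alternative itself removes. On reads not divided by gene length, *Scn10a* led in 187 neurons instead of 265 and the median resistant share was 56.5%. At a level of 1 in place of 10, *Scn1a* was present in 38.5%, *Scn8a* in 70.2% and *Scn4b* in 40.3% of neurons. Thinning every neuron to 400000 reads left all 9 shares within their intervals, and dropping the 56 neurons took *Scn9a* to 96.7%, *Scn10a* to 94.4% and *Scn11a* to 90.0%. Averaging the correlations within segments kept 20 of the 27 most similar genes.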
